A study of Mus musculus with 3 samples.

Results

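TM11 is the smallest of 11 stromal groups into which the putative trabecular meshwork (TM) cells of the mouse iridocorneal angle were divided. It was taken as every kept cell that carries the deposited label TM_11, which gave 122 of the 26008 kept cells, 27 from control replicate 1, 46 from control replicate 2 and 49 from the single *Angpt1*ΔNC library. The 2 control libraries came from Angpt1 flox/flox mice, and the *Angpt1*ΔNC library came from Angpt1 flox/flox;Wnt1Cre+ mice, so the floxed allele is shared and the *Wnt1*-Cre driver, which deletes *Angpt1* throughout the neural crest and not in the TM alone, sets the groups apart. All animals were 6 weeks old, of mixed strain with 2 generations of crossing to albino ICR mice, and each library pooled 4 to 6 eyes of 2 to 3 male and female mice. Cells of 1 library share these animals, so libraries were compared and not cells, and the mutant side rests on a single library.

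The TM is a sieve of matrix beams lined by neural crest-derived cells, through which aqueous humor leaves the eye. ANGPT1 is a secreted ligand of the endothelial receptor TEK. Complement is a cascade of secreted proteases and their substrates. In the classical pathway C1R activates C1S. C4 and C2 are cleaved by C1S, or by the MASP proteases in the lectin pathway. Factor B takes the place of C2 in the alternative pathway, both routes cleave C3, and soluble or membrane-bound regulators hold the cascade back. Most complement protein in plasma is made by the liver, but stromal cells also express many of these genes.

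The TM11 cells held 233010, 374603 and 345856 unique molecular identifiers (UMIs, each one captured transcript) in control replicate 1, control replicate 2 and *Angpt1*ΔNC, with a median of 8737, 7720.5 and 6846 UMIs per cell and a full range of 1604 to 16805. Levels below are means over cells of UMIs per 10,000 UMIs of the cell, and 3 values in a row are always given in that order of libraries. Confidence intervals (CI) of shares are exact Clopper-Pearson 95% intervals and, like the limits set by counts of 0, cover counting error only. The *Angpt1*ΔNC library differed in other ways too. *Xist*, the transcript that silences an X chromosome in female cells, had a UMI in none of the 27 and 46 control TM11 cells and in 35 of the 49 *Angpt1*ΔNC cells, while a Y-linked UMI was seen in 25, 34 and 10 cells. Over TM1 to TM10 the share of cells with *Xist* was 0%, 0.0305% and 59.3%, so almost no control stromal cell carried this mark of the female mice that the labels describe in the pools. The median mitochondrial share was 2.70%, 3.44% and 4.25%. Across all kept cells 52 barcodes occurred in more than 1 library, none of them in a TM11 cell.

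TM11 carried the 4 genes that mark it, though no cell group is defined by them alone. *C2* (chr17:34862604-34898265, minus strand, build GRCm38), the complement protease above, had a level of 3.04, 1.42 and 1.98, against 0.71, 0.586 and 0.40 in TM10, the stromal group used here for comparison, and 0.305, 0.218 and 0.142 over TM1 to TM10. It was seen in 16 of 27, 25 of 46 and 25 of 49 cells, with a highest single cell at 8.68, 6.26 and 16.5. It ranked only 4th of 35 labels, behind clusters 7, 8 and 9. Ranks among the labels, here and below, go by the mean over the libraries and need not hold in each. *Cfb* (factor B, chr17:34856374-34862518, minus strand) had a level of 1.35, 0.596 and 0.888 in 12, 13 and 14 cells. It was the highest of the 35 labels, with TM10 next at 0.276, 0.286 and 0.244.

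*Fmo2* (chr1:162874317-162898726, minus strand), a flavin monooxygenase that oxidizes foreign compounds, had a level of 1.05, 0.865 and 1.55 in 6, 15 and 22 cells, and TM10 had 0.451, 0.468 and 0.364. *Cxcl5* (chr5:90759360-90761624, plus strand), a chemokine that draws neutrophils, had a level of 6.94, 8.47 and 11.8 in 13, 22 and 22 cells. Both were highest in TM11 among all labels. The 4 markers together summed to 12.4, 11.4 and 16.2 in TM11 and to 6.49, 4.73 and 4.12 in TM10. In both groups *Cxcl5* was the largest part of that sum, so TM10 held much of it too. *Cxcl5* was uneven from cell to cell, with a median cell at 0 in all 3 libraries and a highest cell at 103.6, 51.7 and 100.7. In the limbal and corneal epithelium, where free RNA would also land, a UMI was found in 3.74%, 1.48% and 2.74% of cells for *C2*, and in 0.202%, 0% and 0% for *Cfb*, but in 7.99%, 13.4% and 22.5% for *Fmo2*. The *Fmo2* shares of TM11 cells (22.2%, 32.6% and 44.9%) stood above those epithelial shares in each library. These comparisons between groups carry no test, because the cells were clustered on their expression.

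**Figure D1:**
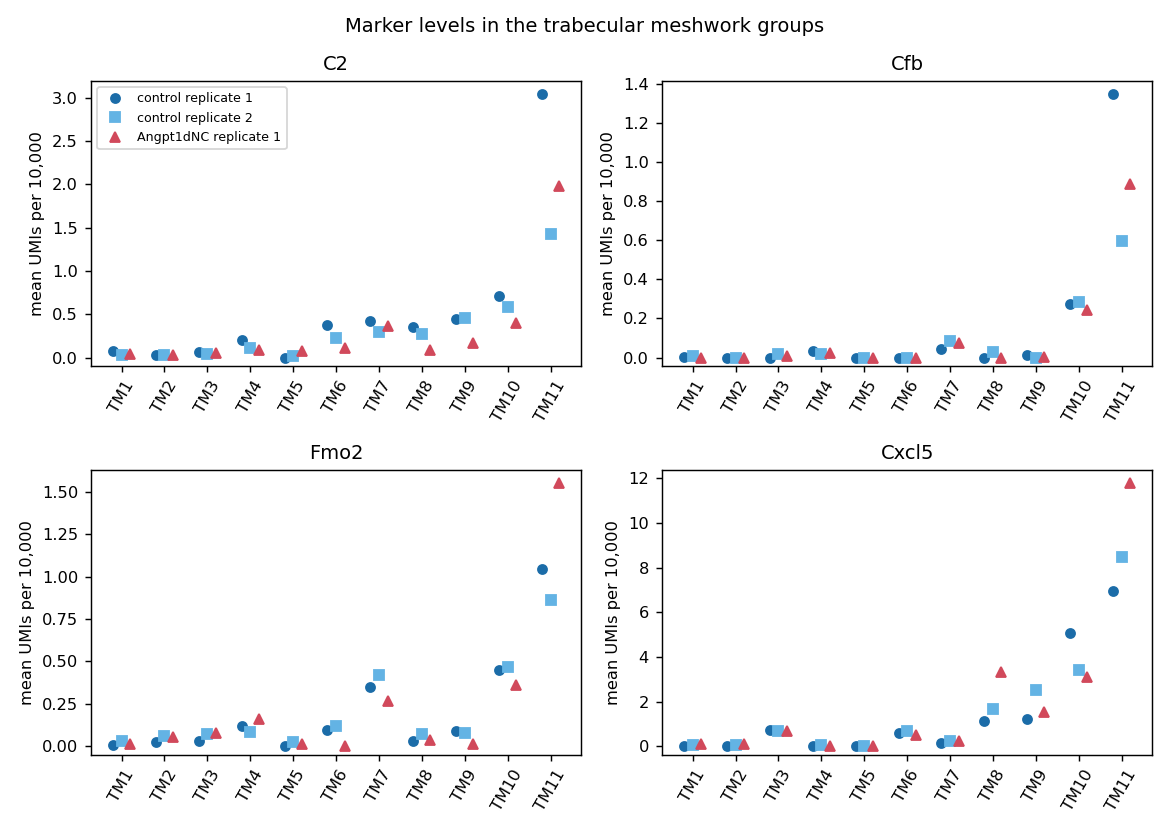
Mean UMIs per 10,000 (vertical axes, linear) of *C2*, *Cfb*, *Fmo2* and *Cxcl5* in the stromal groups TM1 to TM11 (horizontal axes), with 1 point per library, the *Angpt1*ΔNC library drawn as Angpt1dNC. In each panel the 3 TM11 points lie above those of TM1 to TM10, with TM10 the nearest group for *Cfb* at 0.276, 0.286 and 0.244.

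Per cell, detection of the 4 markers was incomplete, and they overlapped in part of the cells. At least 2 of the 4 had a UMI in 15 of 27, 25 of 46 and 25 of 49 TM11 cells, all 4 in 3, 3 and 6 cells, and none in 5, 9 and 12 cells. Over TM1 to TM10, 76.3%, 77.1% and 81.4% of cells had none. *C2* and *Cfb* lie next to each other in the same orientation with 85 bases between them. Both were seen in 32 of the 122 cells, against 66 cells with *C2* and 39 with *Cfb*, and their levels had a Spearman correlation over cells of 0.467 (0.623, 0.304 and 0.468 within the libraries, a description over cells that share libraries and depth). A predicted gene that overlaps both, *Gm20547*, had 0 UMIs in TM11.

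The genes with the highest level in TM11 relative to the other stromal groups differed in kind. Of the 15 genes with the highest control ratio of TM11 over TM1 to TM10 (0.1 added to both levels, UMI in at least 25% of control TM11 cells), *Coch* (chr12:51593341-51605771, plus strand), which encodes the secreted matrix protein cochlin, came first at 40.7-fold. *Mmp3* (chr9:7445822-7455975, plus strand), the secreted protease stromelysin-1, followed at 31.1-fold and the chemokine *Cxcl14* at 17.8-fold. The others were *Col6a5*, *Cyp2f2*, *Masp1*, *Cxcl5*, *Podn*, *Serpina3n*, *Osr2*, *Cfb*, *Smoc2*, *Gpnmb*, *Matn4* and *C3*, with ratios from 13.4 down to 6.47, and *C2* came 16th at 6.45. In the *Angpt1*ΔNC library the same ratio was 3.52 for *Coch*, 13.6 for *Mmp3*, 7.82 for *Cxcl14*, 8.61 for *C2* and 8.30 for *C3*. These ratios were taken from the cells that were clustered and ranked on the controls alone, which by itself favours higher ratios there, so nothing is read from the lower mutant values. The stretches of 250 bases before the annotated start of *Mmp3* (chr9:7445572-7445821) and *Coch* (chr12:51593091-51593340), both on the plus strand of GRCm38.p6 as given by RefSeq, are shown because these genes lead the group and because *Mmp3* and *Coch* differed between genotypes in opposite directions below. Capitals mark the AP-1 motif TGANTCA, searched on both strands.
Mmp3: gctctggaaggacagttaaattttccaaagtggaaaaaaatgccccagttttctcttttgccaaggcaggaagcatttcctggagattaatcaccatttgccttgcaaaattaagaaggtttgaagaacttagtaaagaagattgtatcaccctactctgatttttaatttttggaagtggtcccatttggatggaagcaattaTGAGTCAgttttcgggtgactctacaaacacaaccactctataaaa
Coch: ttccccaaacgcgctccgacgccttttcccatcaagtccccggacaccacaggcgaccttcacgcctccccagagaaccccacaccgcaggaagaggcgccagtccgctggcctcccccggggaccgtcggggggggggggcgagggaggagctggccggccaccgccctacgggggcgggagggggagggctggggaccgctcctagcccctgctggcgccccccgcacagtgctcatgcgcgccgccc
The *Mmp3* stretch held 1 match, ending 39 bases before the start, and the *Coch* stretch held none. Of 32851 promoter windows of this length, 6.75% held a match, which says nothing of binding.

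The complement genes with the most UMIs in TM11 were proteases and substrates of activation and the regulators *Serping1* and *Clu*, while none of the 7 terminal-pathway genes reached 3 UMIs in every library and the receptors had none. The 15 measured of 16 initiation genes summed to 18.5, 14.5 and 16.5, against 7.76, 7.09 and 6.60 in TM10 and 4.63, 4.78 and 5.93 over TM1 to TM10. Of these, 7 members (*C1ra*, *C1s1*, *Masp1*, *C2*, *C4b*, *C3* and *Cfb*) were above TM1 to TM10 in all 3 libraries and 2 (*C1qa* and *C1qc*) below. Of the 19901 genes with a UMI in TM1 to TM11, 6.91% were above and 35.6% below in this sense, many of the latter too rare to be seen in 122 cells. These shares are the background for the counts of this kind given for other lists, which come from the cells that were clustered and carry no test. Among the initiating proteases, *C1ra* had a level of 2.02, 1.59 and 3.66 and *C1s1* of 3.04, 2.09 and 5.12. Their near-identical neighbours *C1rb* (2.24, 2.68 and 0) and *C1s2* (1.82, 1.10 and 0) had no UMI in the TM11 cells of *Angpt1*ΔNC. Reads could be divided between such copies in ways the counts do not show, so the sums are safer. *C1ra* and *C1rb* together gave 4.25, 4.27 and 3.66 (TM10 2.07, 1.66 and 1.64), and *C1s1* and *C1s2* together 4.87, 3.19 and 5.12 (TM10 2.38, 1.30 and 2.88). *Masp1*, a lectin-pathway protease gene, had 1.31, 1.41 and 0.648 against 0.066, 0.0632 and 0.0868 over TM1 to TM10. *C1qa*, *C1qb* and *C1qc*, which encode the recognition unit made by macrophages, were at most 0.115 in any library.

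Of the substrates, *C4b* had a level of 1.51, 2.38 and 2.29 and *C3*, the shared substrate of all routes, of 2.14, 1.13 and 1.70 in 9, 12 and 10 cells. *C3* in TM10 was 1.51, 1.76 and 0.736, so the 2 groups overlapped for it, and its UMIs were also found in 28.9%, 28.0% and 18.4% of epithelial cells. *Cfd*, which encodes the protease that activates factor B, had 0 UMIs in all 122 cells. Of the terminal pathway only *C7* stood above a trace in any library (0.87, 0.0284 and 0), and TM10 had 1.81, 1.81 and 0.0328. *C6*, *C8a*, *C8b* and *C9* had no UMI in TM11, and the same held for all 6 receptor genes. *Serping1*, which encodes the inhibitor of C1R and C1S, was detected in each of the 122 cells at 25.8, 23.8 and 25.8, the highest of the 35 labels, with TM10 at 17.6, 15.8 and 13.6 and TM1 to TM10 at 7.21, 7.13 and 8.51. Its spread over cells was narrow beside the other members, from 6.64 to 59.7 over all cells. The regulator *Clu* (clusterin) went the other way, at 2.76, 3.28 and 4.75 against 7.92, 11.1 and 14.0 over TM1 to TM10. *Cd55*, a membrane regulator, was at 0.042, 0.0289 and 0.0429, against 1.25, 1.27 and 0.709 in TM10.

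**Figure D2:**
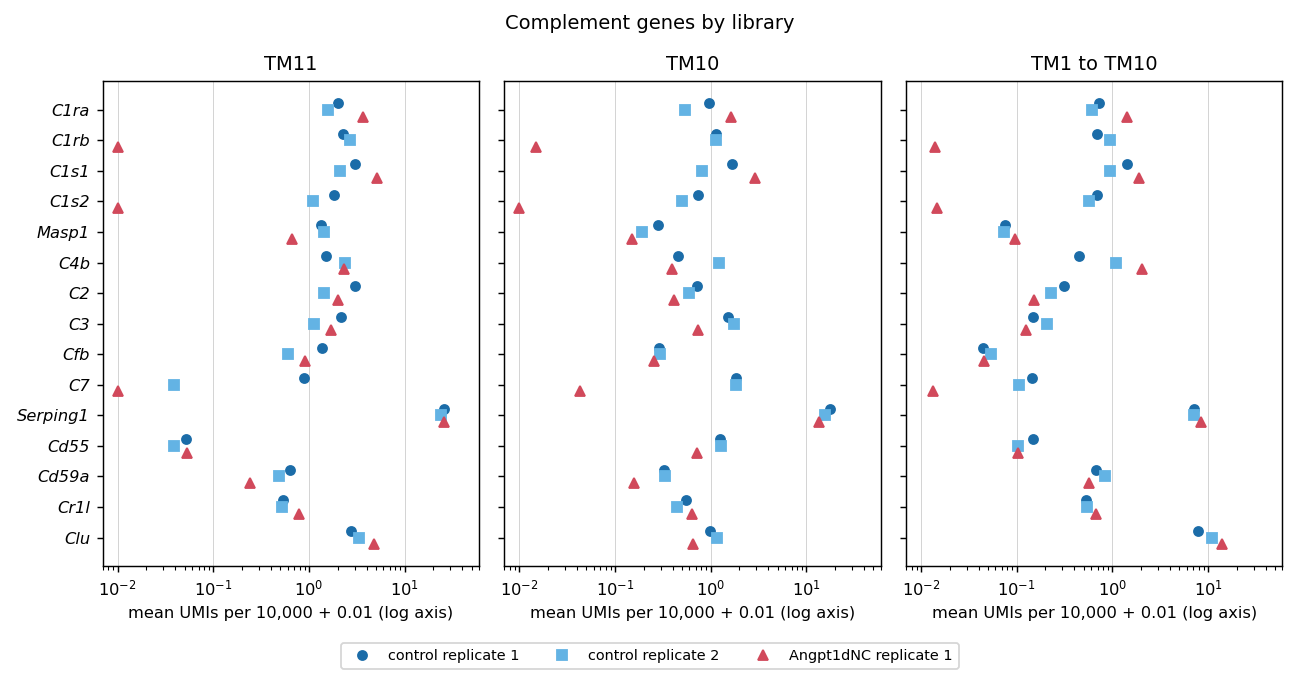
Mean UMIs per 10,000 of 15 complement genes with 0.01 added (horizontal log axes) in TM11, TM10 and TM1 to TM10, with 1 point per library. The *Serping1* points of TM11 sit together at 23.8 to 25.8, the *Angpt1*ΔNC points of *C1rb* and *C1s2* sit at 0 in TM11, and *Cd55* lies lower in TM11 than in the other 2 panels.

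Several secreted inflammatory mediators were also prominent. *Cxcl14*, a chemokine of resting epithelia and fibroblasts, was highest in TM11 of all labels at 18.2, 20.9 and 10.1, in 25, 40 and 41 cells. *Csf1*, the growth factor of macrophages, was likewise highest at 7.54, 8.46 and 9.44, against 4.16, 4.37 and 5.87 in TM10. The neutrophil chemokine *Cxcl1* had 47.1, 45.6 and 53.3 but lay in part of the cells only, with a median cell at 3.07, 4.06 and 2.17 and a highest cell at 346.7, 324.5 and 401.0. TM10 had comparable *Cxcl1* in the controls (48.0 and 52.1). *Cxcl12*, which retains leukocytes and progenitors in tissue, had 6.78, 8.83 and 7.18. *Serpina3n*, an acute-phase protease inhibitor gene, had 2.19, 2.96 and 2.52 against 0.188, 0.253 and 0.502 over TM1 to TM10, and *Tnfaip6*, which binds hyaluronan, had 25.6, 34.2 and 24.9, lower than the 54.7, 42.7 and 39.4 of TM10. The alarmin gene *Il33* had 1 UMI-positive cell among the 122, while TM10 had levels of 4.00, 2.47 and 0.885. Of the measured genes, 4 of 16 chemokines and 7 of 19 cytokines and acute-phase genes were above TM1 to TM10 in all 3 libraries, and 4 and 9 were below, among them *Ptgs2*, *Icam1* and *Vcam1*.

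Matrix genes were abundant in TM11. Of 15 collagen genes 11 were above TM1 to TM10 in all libraries and 1 was below, and together the 15 gave 404, 388 and 247, against 148, 163 and 232 in TM10. *Col1a1* (188, 183 and 107) and *Col1a2* (116, 115 and 80.9), the chains of type I collagen, were present in every cell. *Col6a5*, a chain of beaded-filament collagen, was highest in TM11 at 2.70, 2.1 and 0.493. The small leucine-rich proteoglycans summed to 437, 451 and 467, of which decorin (*Dcn*) gave 336, 351 and 371, and podocan (*Podn*) was highest in TM11 at 1.60, 1.55 and 1.27. *Mmp3* had 74.0, 41.7 and 119, against 3.04, 3.1 and 18.6 in TM10, and was seen in 25 of 27, 40 of 46 and 46 of 49 cells. *Mmp2*, *Mmp23*, *Ctsk* (cathepsin K, a collagen-degrading protease) and the inhibitor *Timp2* were also highest in TM11, with *Ctsk* at 12, 9.74 and 8.02. *Timp1* and *Timp3* were below TM1 to TM10 in each library, *Timp3* at 3.17, 3.67 and 10.7 against 15.5, 17.7 and 14.3.

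Of 16 genes of oxidation and detoxification 10 were above TM1 to TM10 in all libraries and 2 were below. *Cyp2f2*, a cytochrome P450, had 6.34, 8.21 and 10.5 and was seen in 24, 41 and 45 cells, and *Apod*, a lipid carrier, had 52.4, 54.9 and 36.7 in every cell. Both were highest in TM11. The 5 genes whose level followed the summed markers most closely over the 105 points of 35 labels by 3 libraries were *Mgst1* (Spearman rho 0.696), *Gpx3* (0.693), *Mt1* (0.663), *Glul* (0.647) and *Mt2* (0.629), a description over points that share libraries.

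TM11 lay below TM10 in the summed genes of adventitial fibroblasts, the cells around vessels. The 14 genes of that list summed to 65.5, 57.8 and 51.3 in TM11 and to 282, 297 and 205 in TM10. Against TM1 to TM10, 6 of the 14 were above in all libraries and 5 below. *Smoc2* and *Cpz* were highest in TM11 of all labels. The surface protein gene *Cd34* had 0.849, 0.532 and 0.558 in TM11 against 9.05, 7.96 and 8.42, and *Pi16* 2.26, 0.534 and 0.0864 against 20, 13.4 and 26.2. *Clec3b* (tetranectin) was lower as well, at 4.35, 4.22 and 3.71 against 13.0, 12.4 and 22.8, but above the 0.973, 0.944 and 2.45 of TM1 to TM10. *Cpz*, a carboxypeptidase gene, ran the opposite way, with 3.40, 3.08 and 4.45 in TM11 and 0.0667, 0.136 and 0.274 in TM10. Over 2509 genes the profile of TM11, averaged over all 3 libraries, had a Pearson correlation of 0.867 with TM4 and 0.865 with TM10, both on a log2 scale. In these averages, which include *Angpt1*ΔNC, TM11 was as near to a meshwork group as to TM10. *Chil1*, a secreted chitinase-like protein, had 22.2, 6.10 and 8.61, against 2.04, 1.35 and 0.197 in TM10. *Chil1* was not above TM1 to TM10 in all 3 libraries. *Myoc* (myocilin), a classic gene of the meshwork, had 1.12, 0.176 and 0.0556, below the 12.3, 14.8 and 8.79 of TM1 to TM10. Of 14 genes used to compare cells of the angle, 3 (*Tnc*, *Clec3b* and *Svep1*) were above TM1 to TM10 in all libraries. Below it in all libraries were 9, among them *Myoc* and the meshwork genes *Chad* and *Nell2*.

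Most marker lists of other cell types summed to less than 1 UMI per 10,000 in TM11, except those of keratocytes and corneal endothelium. In TM11 the summed level was 0.734, 0.574 and 0.783 for 7 surface epithelial markers, 0.288, 0.292 and 0.325 for 7 endothelial markers with *Cdh5* and *Emcn* at 0, and 0.213, 0.265 and 0.662 for 7 macrophage and dendritic cell markers with *Ptprc* at 0. The 5 T cell markers gave 0, 0.0222 and 0.0315, and the 5 glial markers 0.371, 0.112 and 0.111 with 4 of 5 at 0. The 7 melanocyte and pigment epithelium markers gave 0.935, 0.793 and 0.634, the 7 smooth muscle markers 0.537, 0.565 and 0.43 with *Myh11* at 0, the 5 ciliary epithelium markers 0.695, 0.722 and 0.491, and the 5 corneal endothelium markers 1.75, 1.67 and 2.40 (2.94, 4.57 and 4.61 over TM1 to TM10). The 5 keratocyte markers gave 53.9, 55.1 and 50.8, mostly from *Lum* (47.4, 47.5 and 45.5), a gene of many stromal cells. The keratocyte gene *Kera* was at 1.08, 0 and 0.134, below TM1 to TM10, but *Aldh3a1*, a corneal crystallin of keratocytes and epithelium, was above TM1 to TM10 in each library at 3.39, 6.12 and 3.69 (2.07, 1.88 and 2.03). Its level in the epithelium was 64.7, 52.9 and 24.9. In each library 6 to 7 TM11 cells had very high UMIs or at least 3 UMIs of epithelial, endothelial and macrophage markers together and may be doublets that the authors' removal step left.

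The TM11 cells were not of one kind. Among them *Col14a1* (chr15:55307750-55520803, plus strand), a collagen of fibril surfaces, was seen in 16 of 27 (59.3%), 29 of 46 (63%) and 36 of 49 (73.5%) cells, and its level ran against that of *A2m* (alpha-2-macroglobulin, a protease inhibitor), with a Spearman correlation over cells of -0.65 (-0.77, -0.69 and -0.58 within libraries). The split by *Col14a1* and the genes named beside it were chosen after their values were seen and carry no test. It is also a split by detection, since 1, 1 and 7 of the positive cells had a single *Col14a1* UMI and 21.5%, 23.1% and 22.5% of epithelial cells had at least 1. The complement genes did not all follow the split. *C2*, *Cfb*, *C3* and *C4b* were seen more often in positive cells of each library. *C2* had a UMI in 87.5%, 69.0% and 63.9% of *Col14a1*-positive cells and in 18.2%, 29.4% and 15.4% of negative cells, *Cfb* in 68.8%, 34.5% and 36.1% against 9.09%, 17.6% and 7.69%, and *C3* in 56.2%, 34.5% and 25.0% against 0%, 11.8% and 7.69%. *C4b* was seen in 43.8%, 55.2% and 36.1% against 0%, 17.6% and 7.69%. *C1ra* was at least as frequent in negative cells (68.8%, 69.0% and 80.6% against 72.7%, 70.6% and 92.3%). *C1s1* was more frequent in positive cells by a smaller margin, at 87.5%, 75.9% and 91.7% against 72.7%, 52.9% and 84.6%.

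*Cxcl1* was seen in 81.2%, 86.2% and 75% of positive and 36.4%, 41.2% and 30.8% of negative cells, with a level of 77.5, 67.1 and 72.3 in positive and 2.96, 8.77 and 0.627 in negative cells. *Clec3b* was seen in 68.8%, 89.7% and 61.1% of positive against 9.09%, 11.8% and 7.69% of negative cells, and *Fgl2*, which encodes a fibrinogen-like prothrombinase, in 87.5%, 75.9% and 75% against 9.09%, 11.8% and 7.69%. *Coch*, the leading gene of the whole group, lay on the other side, in 6.25%, 6.90% and 5.56% of positive and 72.7%, 52.9% and 30.8% of negative cells. *Tnmd* (tenomodulin, a tendon and ligament protein) was seen in 12.5%, 10.3% and 2.78% of positive against 81.8%, 52.9% and 38.5% of negative cells, and *Tnc* (tenascin C) in 6.25%, 6.90% and 13.9% against 72.7%, 52.9% and 46.2%. *Masp1* also leaned to the negative side, at 18.8%, 44.8% and 27.8% against 72.7%, 52.9% and 46.2%, with a small gap in control replicate 2. *Serping1* was in every cell of both kinds, at 24.5, 21.6 and 24.7 in positive and 27.8, 27.6 and 28.9 in negative cells, and *Mmp3* was in 90.9%, 70.6% and 100% of negative cells too. Median depth was 8205, 8125 and 6679.5 UMIs in positive and 9765, 7532 and 7145 in negative cells, so it did not differ one way in all libraries.

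**Figure D3:**
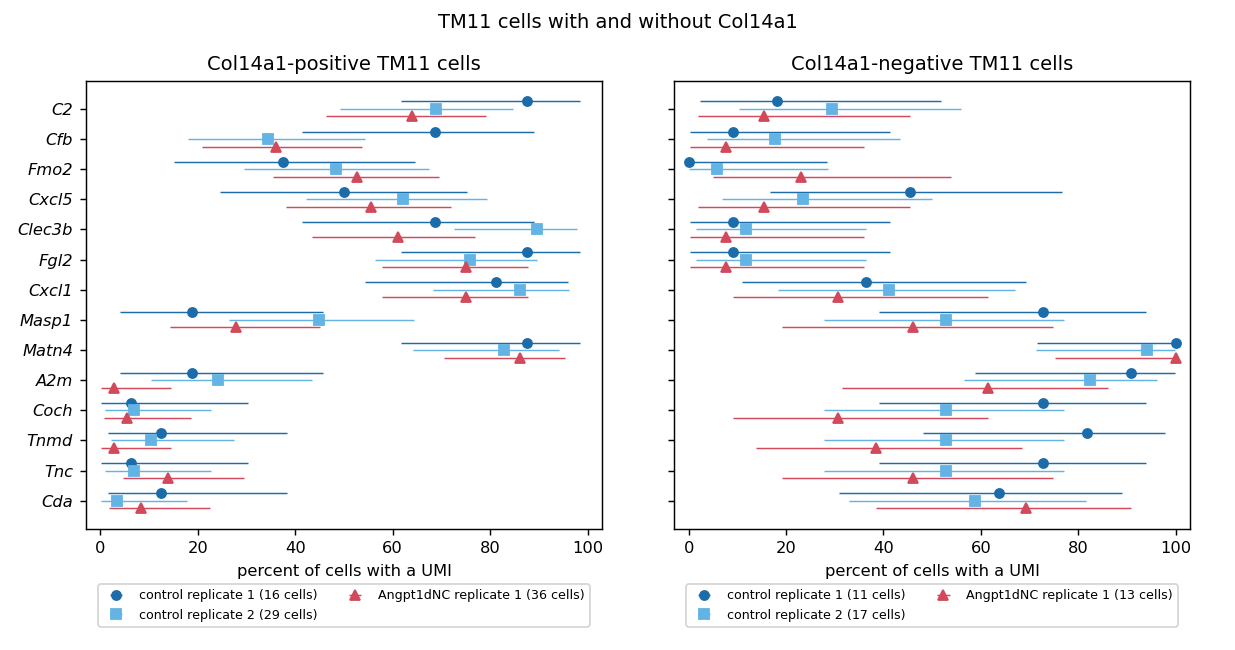
Percent of TM11 cells with a UMI (horizontal axes) of 14 genes in *Col14a1*-positive cells (left) and *Col14a1*-negative cells (right), with 1 point per library and exact 95% intervals as bars. *C2* lies at 63.9% to 87.5% on the left and 15.4% to 29.4% on the right, and *Coch* at 5.56% to 6.90% on the left and 30.8% to 72.7% on the right.

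TM11 cells made up 0.297% (CI 0.196 to 0.433) of the kept cells of control replicate 1, 0.453% (0.332 to 0.603) of control replicate 2 and 0.724% (0.536 to 0.955) of *Angpt1*ΔNC. The *Angpt1*ΔNC share was the highest, and its interval overlapped that of control replicate 2. Of all TM1 to TM11 cells TM11 made up 0.963%, 1.38% and 2.52%. With 1 mutant library this difference has no test.

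*Angpt1* (chr15:42424723-42676977, minus strand) was low but detectable in control TM11 cells and all but absent in the mutant. Its level was 0.538, 0.557 and 0.0376, with a UMI in 6 of 27 (22.2%, CI 8.62 to 42.3), 17 of 46 (37.0%, 23.2 to 52.5) and 1 of 49 cells (2.04%, 0.0517 to 10.9). Epithelial cells, with 17717, 15168.5 and 15135 UMIs in the median cell, had it in 0.303%, 0.494% and 0%. The control shares in TM11 lay above these epithelial shares, and free RNA itself was not measured. In TM10 *Angpt1* was seen in 39 of 194, 30 of 167 and 0 of 188 cells, the last with a CI that reaches 1.94%. In counts summed per library, *Angpt1* fell by 4.09 on the log2 scale in *Angpt1*ΔNC TM11 cells (SE 0.986, edgeR quasi-likelihood test, Benjamini-Hochberg adjusted p = 0.00306). It kept its direction but not its call with 27 cells per library (adjusted p = 0.102), in male-typed cells alone, those with a Y-linked UMI and no *Xist* (0.179) and in *Col14a1*-positive cells alone (0.651). DESeq2, used below as a second method, did not pass *Angpt1* either.

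For all genes, UMI counts of TM11 were summed per library and the 2 controls compared with *Angpt1*ΔNC in edgeR. Of 4729 genes tested, 102 passed (2.16%), 47 higher (0.994%) and 55 lower (1.16%) in *Angpt1*ΔNC, and 470 had an unadjusted p under 0.05. Only 1 degree of freedom is left over for the spread, which edgeR pools across genes, and the mutant library is taken to vary as the controls do. DESeq2 passed only 10 genes, all of them among the 102. DESeq2 gave an adjusted p for 1778 genes. Genotype, sex makeup and library cannot be told apart in this design, and in summed counts fewer cells with a transcript and fewer transcripts per cell cannot be told apart either. None of the 4 markers of TM11 passed. Their log2 fold changes were -0.23 for *C2* (adjusted p = 0.915), -0.38 for *Cfb* (0.874), 0.62 for *Fmo2* (0.695) and 0.52 for *Cxcl5* (0.686, but 1.20 and 0.00765 with equal numbers of cells), and without control replicate 1 those of *C2* and *Cfb* turned to 0.24 and 0.15, so no genotype difference was detectable for them at this depth in all cells.

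Of 9 complement initiation genes tested, 2 passed, both lower and both near-identical copies. *C1rb* was at 0 UMIs in *Angpt1*ΔNC, at least 27.3-fold lower (floor of 3 UMIs in that library), and *C1s2* at least 15.8-fold lower, while *C1ra* and *C1s1* had log2 fold changes of 0.99 and 1.00 (adjusted p = 0.116 and 0.0841). The same pattern stood in TM1 to TM10, with *C1rb* at 0.681, 0.925 and 0.00398. The gene pair of *Il11ra1* and *Gm13305* showed the same exchange. *Il11ra1*, an interleukin 11 receptor gene, rose by 2.91 (1.55, 1.17 and 9.90), while its copy *Gm13305* fell by 1.98 (10.1, 9.91 and 2.46), and their sum was 11.6, 11.1 and 12.4. *Gm10260*, a predicted gene, had 2.36, 3.66 and 0, at least 34.3-fold lower. It was near 0 in the other mutant cells as well, at 0.0168 over TM1 to TM10 and 0.028 in the epithelium against at least 2.62 in the controls, so this loss was not limited to TM11. Mice were of mixed strain, and the part of strain or of the counting of copies in these differences was not tested. The regulators *Serping1* and *Clu* had log2 fold changes of 0.05 and 0.82 and did not pass (adjusted p = 0.986 and 0.259).

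Interferon-stimulated genes were the list with the most calls. Of 14 tested, 5 rose and none fell, with a median log2 fold change of 0.99 against -0.02 over all genes. *Ifit1* (chr19:34640871-34650009, plus strand), an antiviral RNA-binding protein, had levels of 0.372, 1.58 and 8.19 in 4 of 27, 13 of 46 and 29 of 49 cells, with the mutant above both controls, and rose by 3.02 on the log2 scale (SE 0.339, adjusted p = 7.73e-16). Without control replicate 1 that change was 2.38 and without control replicate 2 it was 4.62. *Ifit3* rose by 2.92 (0.034, 0.25 and 1.30), *Isg15*, a ubiquitin-like modifier, by 1.65 (2.94, 3.76 and 10.1), *Bst2* by 1.31 and *Iigp1* by 1.10. Control replicate 1 lay below control replicate 2 for all 5. The antigen-presentation genes *H2-D1* and *H2-K1* of this list had log2 fold changes of -0.56 and -0.59 and did not pass. *Tap1* (1.97) and *H2-T22* (1.64), antigen-presentation genes outside the list and named after their values were seen, passed as higher. In DESeq2 none of the 5 was among the 10 genes that passed, and for *Ifit1* its adjusted p was 1.00. In the sequence before the *Ifit1* start (chr19:34640639-34640888, plus strand, GRCm38.p6, RefSeq), capitals mark the motif TTTCNNTTTC of interferon-stimulated response elements, searched on both strands, shown because this list held the most calls. The RefSeq start used here is not the first base of the GENCODE gene span given above but lies shortly inside it, and distances are counted from the RefSeq start.
Ifit1: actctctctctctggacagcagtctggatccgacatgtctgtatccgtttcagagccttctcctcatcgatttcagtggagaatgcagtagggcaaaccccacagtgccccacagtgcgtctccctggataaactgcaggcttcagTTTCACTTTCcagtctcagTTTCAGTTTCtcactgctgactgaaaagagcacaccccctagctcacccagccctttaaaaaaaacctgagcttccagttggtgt
It occurred 2 times, ending 94 and 75 bases before the start, and in 2.98% of the 32851 windows, of which it is a description and not a measure of binding.

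*Apoe* (apolipoprotein E, a lipid carrier) rose by 2.59 (SE 0.332, adjusted p = 4.26e-12), from 4.42 and 12.9 in the controls to 55.8, and was seen in 23 of 27, 40 of 46 and 47 of 49 cells. The change was 1.98 without control replicate 1 and 3.75 without control replicate 2. Its level over TM1 to TM10 was 41.8, 62.2 and 79.8. DESeq2 did not pass *Apoe* (adjusted p = 1.00). *Mmp3* rose by 1.18 (SE 0.342, adjusted p = 0.0280), from a median cell at 53.7 and 28.4 to 102.8. Its direction stayed but its call was lost without the filter on low counts (adjusted p = 0.0649), in male-typed cells (0.0578), without possible doublets (0.0954), in *Col14a1*-positive cells (0.222) and in DESeq2 (0.216). The protease inhibitors *Timp1* and *Timp3* rose by 1.15 and 1.41. Some higher calls rested on 1 cell. All 173 UMIs of *Saa3*, an acute-phase protein gene, came from 1 of the 49 cells (log2 fold change 4.46, adjusted p = 6.10e-23 in edgeR and 1.00 in DESeq2, and a change of 10.48 without control replicate 1 or 3.21 without control replicate 2), and 71 of 72 UMIs of *Lcn2*, 29 of 34 of *Ccl8*, 22 of 23 of *Esm1* and 49 of 84 of *Ifi203* were likewise in 1 cell, genes listed here after their counts were seen. *Xist* rose by 10.54, and *Ddx3y*, on the Y chromosome, fell by 1.67 (adjusted p = 0.0181).

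*Coch* fell by 3.00 (SE 0.416, adjusted p = 3.05e-10), from 5.73 and 9.61 to 0.714, with a UMI in 9 of 27, 11 of 46 and 6 of 49 cells. The mutant lay below both controls, and DESeq2 passed it too (adjusted p = 1.46e-04). Its fall ran beside a lower share of *Col14a1*-negative cells (40.7%, 37.0% and 26.5%), a gap that is gone when cells with a single *Col14a1* UMI are counted as negative (44.4%, 39.1% and 40.8%). The *Coch* level in that wider set was 12.9, 24.5 and 1.59. Within *Col14a1*-positive cells, which hold little of it, its log2 fold change was 1.16 (adjusted p = 0.931). Within *Col14a1*-negative cells its level was 13.7, 25.7 and 1.86. Some other genes of the negative cells, named here after their values were seen, fell as well, *A2m* by 1.88 (6.4, 6.69 and 1.59), *Cda* by 2.05 and *Tnmd* by 1.60. Not all did. *Matn4*, *Mgarp* and *Aldh3a1*, also higher in negative than positive cells of each library, were not among the genes that passed. Their levels in negative cells were 21.6, 15.1 and 21.4, then 14.7, 9.76 and 12.2, then 6.61, 11.2 and 7.76. The part of the cell mix in the falls of *Coch*, *A2m*, *Cda* and *Tnmd* was not tested. *Col6a5*, a gene of the positive cells, fell by 2.58 (SE 0.466, adjusted p = 6.92e-06), and also in positive cells alone (-2.82, adjusted p = 3.43e-05), while male-typed cells (-2.15, adjusted p = 0.0752) and DESeq2 (-2.58, adjusted p = 0.133) gave a like change that did not pass. *Scg2*, which encodes a secretory granule protein, was at least 15-fold lower, but its control UMIs came from 3 and 4 cells, and without the highest cell of each library its adjusted p was 0.24.

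Of 15 collagens tested, 2 fell (*Col6a5* and *Col15a1*) and the median log2 fold change was -0.81, with *Col1a1* at -0.82 (adjusted p = 0.398) and *Col3a1* at -0.81 (0.374). Of 12 genes of the stress response to dissociation, *Fosb* (-1.32), *Jun* (-1.32) and *Nr4a1* (-2.04) fell and none rose, with a summed level of 96.1, 65.2 and 44.7. Of 13 chemokines *Ccl8* rose and *Ccl11*, at 0 UMIs in *Angpt1*ΔNC, fell, and of 16 cytokine and acute-phase genes *Lif*, *Saa3* and *Lcn2* rose and *Il11* fell by 2.30. *Ccl11* had 24 of its 28 UMIs of control replicate 1 in 1 cell and 1 UMI in control replicate 2. *Il11* was not outside both controls (0.0839, 0.930 and 0.135), and 48 of its 56 UMIs of control replicate 2 lay in 1 cell. Of 21 modulators of IGF, Wnt, BMP and TGF-beta signalling, the Wnt inhibitors *Wif1* (-2.98) and *Sfrp4* (-2.19) fell, the latter not outside both controls. Among 14 oxidation genes *Gpx3* fell by 1.86, among 13 adventitial genes *Pi16* by 4.66 (45 of 66 UMIs of control replicate 1 in 1 cell), and among 12 angiopoietin, VEGF and semaphorin genes *Angpt1* and *Angptl7* (by 1.51). None of 11 proteoglycans passed. Of the 14 glaucoma genes tested, *Angpt1* alone passed, and *Svep1*, which encodes a large matrix protein that was highest in TM11 of all labels (0.91, 1.24 and 1.98), had a log2 fold change of 0.72 (adjusted p = 0.540).

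**Figure D4:**
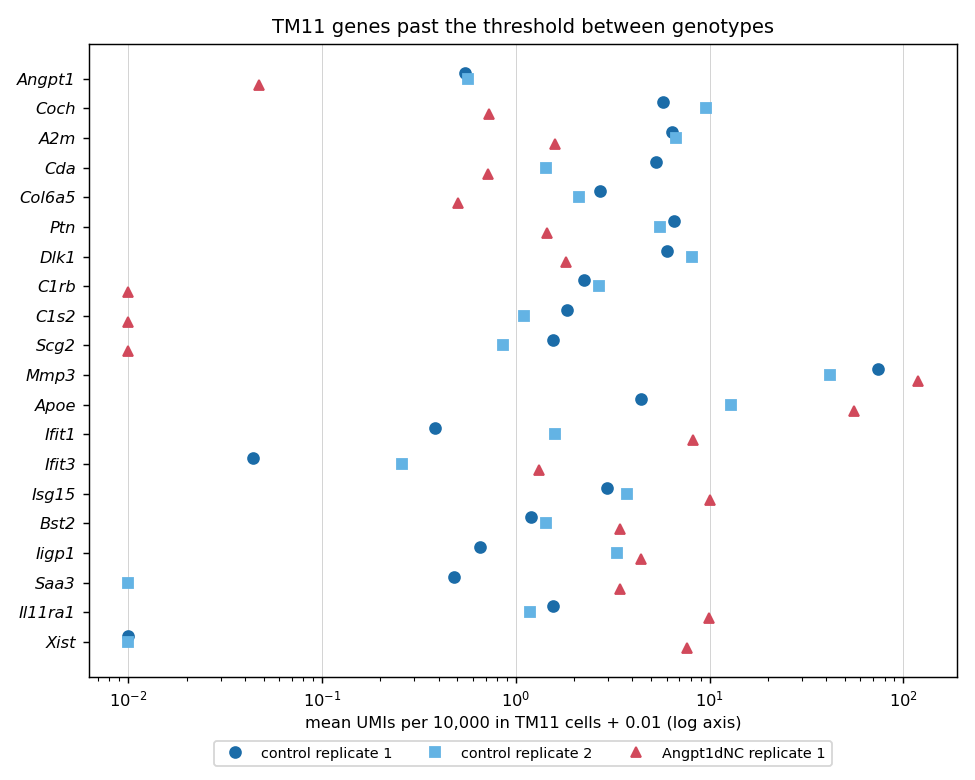
Mean UMIs per 10,000 in TM11 cells with 0.01 added (horizontal log axis) of 20 genes past the edgeR threshold, with 1 point per library. The *Angpt1*ΔNC point lies to the right of both controls for *Ifit1* (8.19) and *Apoe* (55.8), and to the left for *Coch* (0.714) and *Angpt1* (0.0376).

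Whether these differences were particular to TM11 was tested against TM10 as the interaction of group and genotype, with the library as a block. Of 7758 genes 117 passed (1.51%), 58 with the more positive change in TM11, and 699 had an unadjusted p under 0.05. TM10 alone had 986 genotype calls among 8527 genes, so a call here can reflect a change in either group. *Ifit1* was among them, with a log2 fold change of 3.05 in TM11 and -0.28 in TM10 (adjusted p = 2.22e-08). The complement regulator *Clu* passed, at 0.80 in TM11 and -0.72 in TM10 (adjusted p = 0.0291), while none of 10 initiation genes did. The type I and III collagens moved apart, *Col1a1* at -0.85 and 0.49, *Col1a2* at -0.57 and 0.82 and *Col3a1* at -0.83 and 0.79 (adjusted p = 1.21e-04, 1.21e-04 and 1.57e-05). *Ccl2*, a monocyte chemokine, was at 0.77 in TM11 and -1.92 in TM10 (adjusted p = 7.01e-11). *Mmp3* was higher in the mutant in both groups, at 1.16 in TM11 and 2.56 in TM10, so that the smaller change lay in TM11 (adjusted p = 8.63e-04), and *Igfbp2* followed the same order, at 0.73 and 3.36. None of the 4 markers of TM11 differed between the groups past the threshold.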

How the data were processed

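The 3 droplet libraries were sequenced by the study, and the authors made the deposited UMI counts per gene and cell with Cell Ranger (2.1.1 per the labels, 3.0.2 per the matrix header) on build mm10, with no normalization. They removed cells of low quality and predicted doublets, integrated the libraries with Seurat 3.1.3 and deposited the cluster labels used here. *Angpt1* and sex-linked genes were left out of their clustering. The deposited integrated log values served no level here, and no filter was added to the kept cells.

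Levels, shares and exact intervals were computed in Python 3.11.15 with numpy 2.4.6, pandas 2.3.3 and scipy 1.17.1, and figures with matplotlib 3.10.9. Counts summed per library were tested with edgeR 4.0.16 in R 4.3.3 (limma 3.58.1, TMM factors, filterByExpr with a minimum count of 10, quasi-likelihood test, threshold 0.05 on p adjusted by Benjamini-Hochberg over all genes tested). The genotype fit had no covariate, and the fit against TM10 had library and cluster terms. Alternatives were DESeq2 1.42.0, its size factors in edgeR, no filter on low counts, 27 cells per library, male-typed cells, no possible doublets (the top 5% of UMIs in their library, or at least 3 UMIs of other markers), no highest cell of each gene, *Col14a1*-positive cells and leaving out each control. Leaving out the highest cell and taking *Col14a1*-positive cells were chosen after seeing the data. On simulated data the genotype test recovered most of the changes set and the interaction test a minority, both with few false calls. Those counts were drawn at the spread that the genotype fit had estimated, the same for every gene and library. They held no sex, strain or single-cell effects, so few false calls there say nothing of the calls in the real counts.

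The genes named are the 4 markers, the 15 leading genes, members of the lists, *Angpt1*, sex-linked genes, genes the study names for TM10 and TM11, the 5 genes most like the markers and the 10 with the smallest adjusted p past a log2 change of 1 and outside both controls (*Xist*, *Saa3*, *Gm10260*, *C1rb*, *Ifit1*, *Il11ra1*, *Apoe*, *C1s2*, *Scg2* and *Coch*). The members and the gene lists were chosen with earlier results of these data known. Values of 1 gene of these lists are not reported here. Gene positions are from GENCODE M21 (GRCm38). Each library is 1 pool of mice, so a spread between pools could be seen only in the 2 controls. In the genotype fit the prior degrees of freedom were infinite, so a spread shared over genes set the p-values. The spread of a named gene between the controls had no weight of its own.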

Additional observations from a re-analysis of the deposited data

Results flagged for a closer look

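Of 215 genes open to naming that were tested for a genotype difference in TM11 against TM10, 33 passed the interaction test, against 1.51% of all 7758 genes tested (edgeR quasi-likelihood, adjusted p under 0.05, 2 control libraries against 1). The 215 hold genes picked by the genotype fit of these same counts and lists chosen with earlier results known. Setting them beside all genes is therefore no test. Marker lists of other cell types were not counted among the 215, except for genes that also stood in another list. Each value below is the log2 fold change of TM11 minus that of TM10. A positive value means that *Angpt1*ΔNC stood relatively higher in TM11.

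Among inflammatory and complement genes the difference was 2.68 for *Ccl2*, 1.95 for *Cxcl2*, 1.68 for *Cxcl10*, 1.55 for *Cxcl14* and 1.20 for *Cxcl1*, and 1.51 for *Clu*. All 5 chemokines had a negative log2 fold change in TM10 (-1.92 for *Ccl2*, -2.49 for *Cxcl14*), and in TM11 that of *Ccl2* was 0.77 and that of *Cxcl14* -0.99. Of 15 interferon-stimulated genes tested 3 passed, all positive, with 3.19 for *Ifit1*, 2.92 for *Gbp2* and 1.08 for *Ifitm3*. *Saa3* gave 9.27, but its *Angpt1*ΔNC UMIs in TM11 lie in 1 cell. The stress gene *Zfp36* gave 1.57.

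Of matrix genes, the collagens *Col3a1* (-1.63), *Col1a2* (-1.39), *Col6a1* (-1.35), *Col1a1* (-1.34) and *Col5a2* (-1.29) were negative, and so were the proteases *Mmp19* (-2.15), *Ctsk* (-1.56) and *Mmp3* (-1.36). *Coch* gave -8.41, a value that depends on the prior count because both control TM10 sums were 0. *Fmod* (2.98), a proteoglycan of collagen fibrils, *Svep1* (2.27) and the protease inhibitor *Timp1* (1.70) were positive.

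Signalling modulators and carriers differed in both directions. Positive values were 3.83 for *Igfbp3*, 3.16 for *Sfrp2*, 2.70 for *Chil1*, 1.38 for *Apoe*, 1.28 for *Igfbp6* and 1.20 for *Igfbp7*. *Igfbp2* (-2.69), the adventitial gene *Pi16* (-5.22), *Cyp2f2* (-2.70) and *Gsta4* (-1.44) were negative. *Cyp2f2* had a log2 fold change of 0.46 in TM11 and 3.15 in TM10.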

How the results depend on the processing

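The 102 genotype calls in TM11 became 100 with DESeq2 size factors in edgeR (100 shared), 91 without the filter on low counts (76), 135 with equal numbers of cells (76), 73 in male-typed cells (32), 94 without possible doublets (80) and 102 without the highest cell of each gene (80). They became 43 in *Col14a1*-positive cells (39 shared), where fewer cells enter, and 10 in DESeq2 (10 shared), for which the cause was not tested. Leaving out a control gives fold changes only, and the 13 passing genes among the markers, the leading genes, *Angpt1* and the 10 smallest adjusted p kept their sign. The 117 calls against TM10 became 116 with other size factors and 96 without the filter. The male-typed fit held only 25, 34 and 9 cells. The settings also tested different numbers of genes. These were 4729 in the main fit, 12553 without the filter, 3537 with equal numbers of cells and 3481 in male-typed cells. In *Col14a1*-positive cells 3695 were tested, and DESeq2 gave an adjusted p for 1778. As a part of TM1 to TM11 the TM11 share was 0.963%, 1.38% and 2.52% in control replicate 1, control replicate 2 and *Angpt1*ΔNC. Thinning each cell limited *Angpt1*, whose share dropped to 3.70% and 8.70% in the controls at 1000 UMIs and, for control replicate 2, to 13.0% at 2000 UMIs. The *Angpt1*ΔNC level of *Fmo2* was 1.39 from pooled UMIs and 1.35 without possible doublets, which moved *Cxcl5* to 9.26 in the controls and 13.4 in *Angpt1*ΔNC. Log2 fold changes that turned sign with other cells or settings were *Coch* at 1.16 in *Col14a1*-positive cells, *Cfb* at 0.25, *Serpina3n* at 0.19 and *Osr2* at 0.13 without possible doublets, *Serpina3n* at 0.0177 and *C3* at 0.56 with equal numbers of cells, and *Matn4* at -0.16 in male-typed cells. Changes near 0 also turned when 1 control was left out, without control replicate 1 to 0.24 for *C2*, 0.15 for *Cfb* and 0.42 for *C3*, and without control replicate 2 to 0.24 for *Serpina3n*, 0.45 for *Osr2* and -0.03 for *Matn4*. Of these *Coch* alone had passed the threshold. No paired analysis was possible, because there was a single mutant library and no label links it to a control.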
